A study of Mus musculus with 5 samples.

Results

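Notch1, Hey1 and Nrarp were the 3 genes taken, by symbol, from 4743 genes listed in muscle taken from the forelimbs of C57BL/6 mouse embryos at E15.5, and all 3 had a value in every library. Noggin-deficient embryos (3 libraries) were set against wild type controls (2 libraries), all of the same strain, stage and tissue. Noggin is an extracellular antagonist that holds bone morphogenetic proteins (BMPs) away from their receptors. Neither the Noggin allele nor the number of embryos behind a library is stated in the labels, so p-values measure only the spread between these libraries, which may be technical.

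Notch receptors are cleaved when a ligand on a neighbouring cell binds them, and the freed intracellular domain joins the DNA-binding protein RBPJ and Mastermind proteins to switch on target genes. Notch1 is one of these receptors. Hey1 encodes a basic helix-loop-helix repressor that Notch induces and that BMP signalling through SMAD proteins can also induce, as is known from endothelial cells. Nrarp encodes a small ankyrin repeat protein that Notch induces and that in turn dampens the activity of the intracellular domain. In developing muscle, Notch signalling is known to keep progenitors from differentiating, and in blood vessels it takes part in arterial identity and sprouting.

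The promoter sequences below are shown because the genes of the pathway that respond to Notch went opposite ways. Promoters of 250 bases before to 50 after the start were taken from RefSeq (build GRCm38.p6, whereas the study's processing notes name mm9), and 2 of the 3 genes, Notch1 and Nrarp, matched. Hey2, the closest relative of Hey1 on the pathway list, is shown with them. Capitals mark TGGGAA, the core of the RBPJ site, CAGAC, the SMAD-binding element, and CACGTG, an E-box of the kind bound by Hey proteins, each searched on both strands. The first sequence is at chr2:25180508-25180807 (+ strand), the second at chr2:26503773-26504072 (- strand) and the third at chr10:30842734-30843033 (- strand), each written 5′ to 3′ on its gene's strand.
Nrarp: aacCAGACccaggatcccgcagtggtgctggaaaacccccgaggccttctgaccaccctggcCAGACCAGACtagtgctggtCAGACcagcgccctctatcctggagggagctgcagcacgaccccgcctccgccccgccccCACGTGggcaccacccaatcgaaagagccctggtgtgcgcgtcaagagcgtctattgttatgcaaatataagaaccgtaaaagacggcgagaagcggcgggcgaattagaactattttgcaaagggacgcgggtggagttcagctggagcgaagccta
Notch1: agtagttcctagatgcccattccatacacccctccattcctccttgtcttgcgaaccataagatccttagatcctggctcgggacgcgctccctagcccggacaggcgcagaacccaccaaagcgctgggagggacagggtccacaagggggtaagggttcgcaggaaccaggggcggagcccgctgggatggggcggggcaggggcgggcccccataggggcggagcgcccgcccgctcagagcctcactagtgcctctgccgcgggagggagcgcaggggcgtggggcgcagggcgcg
Hey2: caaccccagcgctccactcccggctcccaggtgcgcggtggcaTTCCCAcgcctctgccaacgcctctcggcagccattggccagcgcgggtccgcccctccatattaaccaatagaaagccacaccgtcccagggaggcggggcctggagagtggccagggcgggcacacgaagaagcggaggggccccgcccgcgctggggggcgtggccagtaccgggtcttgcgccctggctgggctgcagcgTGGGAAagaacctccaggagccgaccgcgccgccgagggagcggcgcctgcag

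The Nrarp window held CAGAC 4 times and CACGTG 1 time, and no TGGGAA. The Notch1 window held none of the 3 motifs. The Hey2 window held TGGGAA 2 times, once on each strand. No motif match overlapped another in these windows. Of 32851 RefSeq mouse promoters of the same length, 25.6% held TGGGAA, 49.6% held CAGAC at least 1 time, 0.91% held it 4 times or more, and 7.2% held CACGTG. Of the Notch pathway genes with values, 11 had such a window. TGGGAA was held by 3 of them, Hey2, which rose, and Maml3 and Aak1, which fell. CAGAC was held by 4, Hes6 and Mib2, which rose, and Nrarp and Ep300, which fell. Genes with either motif thus went both ways. These matches describe the letters of the windows and say nothing of binding.

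The values are the authors' normalized expression signal in a unit that is not named. Levels are therefore compared between libraries for 1 gene and not between genes. Summed levels of lists are also given below, and the genes with the highest values dominate them. Hey1 was listed at 10.38, 11.06 and 11.09 in the Noggin-deficient libraries, against 7.43 and 7.27 in the wild type libraries. The lowest Noggin-deficient library stood above the higher wild type library. Notch1 was listed at 13.48, 13.64 and 13.65 in the Noggin-deficient libraries, against 17.33 and 17.39 in the wild type libraries. Nrarp was listed at 20.41, 20.58 and 21.11 in the Noggin-deficient libraries, against 27.99 and 26.83 in the wild type libraries. For both of these genes all Noggin-deficient libraries were below both wild type libraries, and no library stood apart within its group.

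**Figure D1:**
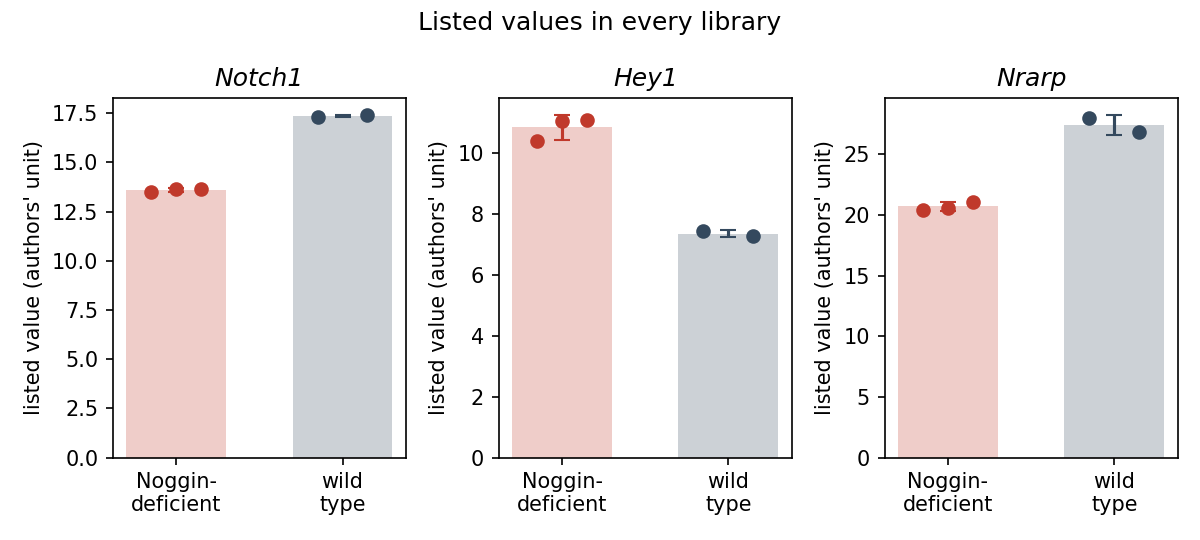
Listed values (authors' unit, vertical axis from 0) of Notch1, Hey1 and Nrarp in 3 Noggin-deficient and 2 wild type libraries; points are libraries, bars are group means and error bars the SD. Notch1 and Nrarp are lower and Hey1 is higher in every Noggin-deficient library, with no overlap between the groups.

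The question put to these values was whether each gene differed between the genotypes by more than the spread between libraries. Hey1 averaged 10.8 ± 0.402 in Noggin-deficient tissue (SD, n = 3) and 7.35 ± 0.113 in wild type tissue (SD, n = 2). Its log2 change was 0.55 (SE 0.042, 95% interval 0.45 to 0.64, limma adjusted p = 1.5e-05), a 1.46-fold higher level. Notch1 averaged 13.6 ± 0.0954 in Noggin-deficient tissue (SD, n = 3) and 17.4 ± 0.0424 in wild type tissue (SD, n = 2). Its log2 change was -0.35 (SE 0.029, 95% interval -0.42 to -0.28, limma adjusted p = 2.3e-05), or 0.786 of the wild type level. Nrarp averaged 20.7 ± 0.365 in Noggin-deficient tissue (SD, n = 3) and 27.4 ± 0.820 in wild type tissue (SD, n = 2). Its log2 change was -0.40 (SE 0.032, 95% interval -0.48 to -0.32, limma adjusted p = 1.9e-05), or 0.758 of the wild type level. Changes are on the scale log2(value + 0.25), Noggin-deficient minus wild type, and a gene was called at a Benjamini-Hochberg adjusted p under 0.05 over all tested genes.

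All 3 genes were called, as were 98.0% of the 3913 genes tested (37.9% higher and 60.1% lower), so the call itself sets none of them apart. Of the tested genes 12 had a change under 0.2 in size, and 98.2% of all listed genes had no overlap between the groups. The tables thus hold genes chosen for a difference between these libraries, in a way the labels do not state, and adjusted p-values over them are not independent evidence. Against a change of 1.5-fold, which 14.5% of tested genes passed, none of the 3 did (limma adjusted p = 1 each). Among the genes called in the same direction, the change of Hey1 was larger in size than 67.3%, that of Nrarp larger than 43.8% and that of Notch1 larger than 32.6%.

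The size of the changes moved with the scaling of the libraries, and the direction of Notch1 with the removal of a length trend. The median log2 change of all tested genes was -0.28 with the values as deposited and -0.03 after median-of-ratios scaling, which raised it by 0.25. Of the called genes 38.7% were higher with the values as deposited, 53.9% after median-of-ratios scaling, 48.0% after upper-quartile scaling and 51.4% once a trend on transcript length had been removed. Hey1 had a log2 change of 0.81 after median-of-ratios scaling (limma adjusted p = 2.2e-06) and of 0.55 with the length trend removed (limma adjusted p = 1.1e-05). Nrarp had changes of -0.13 (limma adjusted p = 0.0076) and -0.37 (limma adjusted p = 2.7e-05) under the same settings. Notch1 had a change of -0.08 after median-of-ratios scaling (limma adjusted p = 0.045) and of 0.06, no longer called, with the length trend removed (limma adjusted p = 0.1). Hey1 was thus higher and Nrarp lower under each of these settings. Notch1 was lower under the scalings but not once the length trend was removed. The scaling factors and the length trend were taken from the listed genes, themselves chosen for a difference. They depend on the mix of higher and lower genes in that choice, and which setting is nearest the truth was not tested.

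Ratios between the genes within a library do not depend on how libraries are scaled against each other. The log2 ratio of Hey1 to Notch1 was -0.37, -0.30 and -0.29 in the Noggin-deficient libraries, against -1.19 and -1.23 in the wild type libraries. The difference of the group means was 0.89, and the groups did not overlap. The log2 ratio of Hey1 to Nrarp was -0.96, -0.88 and -0.91 in the Noggin-deficient libraries, against -1.88 and -1.85 in the wild type libraries, a difference of 0.95 with no overlap. The ratio of these 2 known Notch targets was thus higher in each Noggin-deficient library than in either wild type library. Hey1 was higher, and Notch1 and Nrarp were lower, in every Noggin-deficient library, so both non-overlaps follow from the single genes. With no overlap for 98.2% of all listed genes, most pairs that go opposite ways would show the same. The log2 ratio of Nrarp to Notch1 was 0.59, 0.58 and 0.62 in the Noggin-deficient libraries, against 0.68 and 0.62 in the wild type libraries, and the groups overlapped, with a difference of -0.05. Two-sided exact permutation tests over the 5 libraries gave p = 0.2, 0.2 and 0.4 (adjusted over the 3 ratios, 0.3, 0.3 and 0.4). With 3 libraries against 2 the smallest p such a test can give is 0.2. With the length trend removed the differences were 0.49 for Hey1 to Notch1, 0.92 for Hey1 to Nrarp and -0.43 for Nrarp to Notch1, each with exact p = 0.2.

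**Figure D2:**
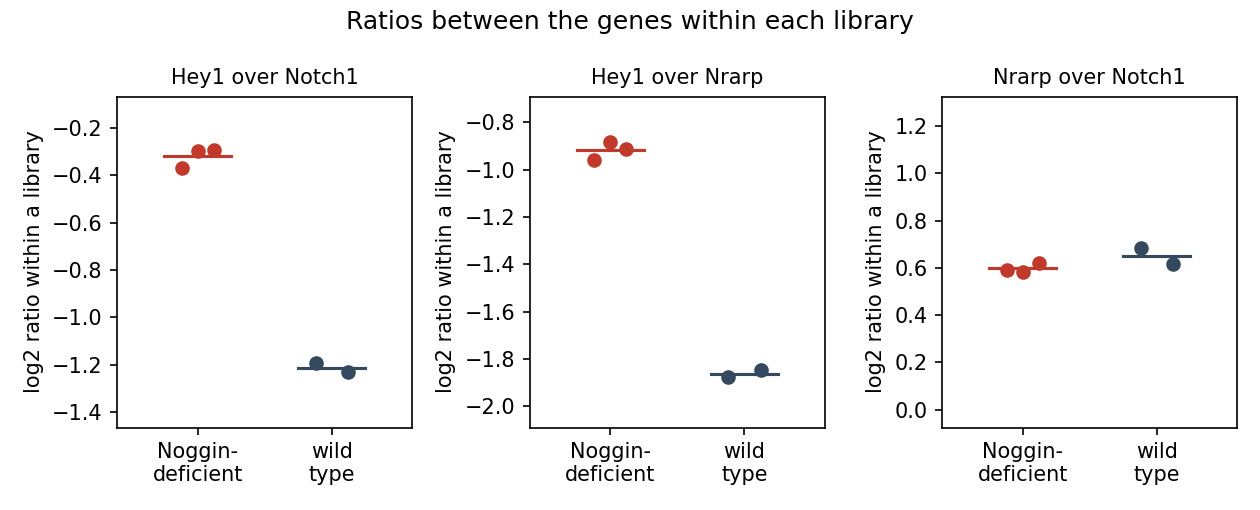
Log2 ratios between Hey1, Notch1 and Nrarp within each library (vertical axes span the same range but are centred separately), for 3 Noggin-deficient and 2 wild type libraries; points are libraries and lines group means. Hey1 is higher relative to both other genes in every Noggin-deficient library, and the groups overlap for Nrarp relative to Notch1.

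The wider pathway held members going both ways. Of 60 Notch pathway genes listed for this comparison, 17 had values, all were tested and all were called, 7 higher and 10 lower, with a median log2 change of -0.26 against -0.28 for all tested genes. The other 43 were not analysed here, among them all 8 ligand genes. After median-of-ratios scaling 7 were called higher and 2 lower, the 2 being Notch1 and Nrarp, and the median was 0.0050. Of all tested genes 70.5% were then called, 38.0% higher and 32.5% lower. With the length trend removed 9 were called higher and 1, Nrarp, lower, and the median was 0.13. Of the tested genes with a length 76.3% were then called, 39.2% higher and 37.0% lower.

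Of 4 receptor genes, Notch1 and Notch2 had values and both fell. Notch2 was listed at 14.10, 14.53 and 14.21 in Noggin-deficient libraries, against 17.28 and 17.86 in wild type libraries, with a change of -0.29 on the log2 scale (SE 0.033, limma adjusted p = 8.6e-05). With the length trend removed Notch2 turned to 0.13 (limma adjusted p = 0.01), and after median-of-ratios scaling its change was -0.03 (limma adjusted p = 0.54).

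Of 8 target and feedback genes 4 had values, and Nrarp alone of these fell, while Hey1, Hey2 and Hes6 rose. Hey2, a second Hey repressor known for arterial and cardiac development, was listed at 2.43, 2.64 and 2.49 in Noggin-deficient libraries, against 1.58 and 1.85 in wild type libraries. Its log2 change was 0.50 (SE 0.082, limma adjusted p = 0.00065). Hes6, a relative of the Hes repressors that is not itself induced by Notch and favours differentiation of neurons and muscle, was listed at 34.09, 35.67 and 37.32 in Noggin-deficient libraries, against 26.86 and 26.24 in wild type libraries. Its log2 change was 0.42 (SE 0.041, limma adjusted p = 4.2e-05). All 3 rises were also called under median-of-ratios scaling and with the length trend removed, where the changes were 0.74 and 0.53 for Hey2 and 0.69 and 0.33 for Hes6.

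The 3 nuclear complex genes with values fell. Maml3, a Mastermind coactivator, had a log2 change of -0.28, Kat2b, an acetyltransferase, one of -0.29, and Ep300, the p300 acetyltransferase used by many pathways, one of -0.33. After median-of-ratios scaling none of the 3 was called (-0.03, -0.03 and -0.06), and with the length trend removed Maml3 and Ep300 turned to 0.10 and 0.08 without a call. Among genes that act on ligands and receptors, Mib1, a ubiquitin ligase that lets ligands signal, fell by 0.33 on the log2 scale and its relative Mib2 rose by 0.40. Mfng, a Fringe enzyme that adds sugar to the receptors, was listed at 8.13, 6.54 and 7.75 in Noggin-deficient libraries, against 5.39 and 5.94 in wild type libraries, and rose by 0.38.

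Of the 5 genes of receptor trafficking and turnover with values, Dtx1 and Dtx3, which encode Deltex proteins, rose by 0.42 each. Dtx4, another Deltex gene, fell by 0.27, as did Itch, a ubiquitin ligase, by 0.26 and Aak1, a kinase of endocytosis, by 0.26. After median-of-ratios scaling the changes of Dtx4, Itch, Aak1 and Mib1 were -0.0058, 0.0050, 0.0052 and -0.070, none of them called. With the length trend removed Mib1, Itch and Dtx4 turned to 0.08, 0.03 and 0.01 without a call, and Aak1 turned to 0.25 (limma adjusted p = 0.001). The rises of Mib2, Mfng, Dtx1 and Dtx3 were called under both settings, with changes from 0.64 to 0.69 after median-of-ratios scaling and from 0.31 to 0.62 with the length trend removed. None of the 17 genes passed against a change of 1.5-fold.

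**Figure D3:**
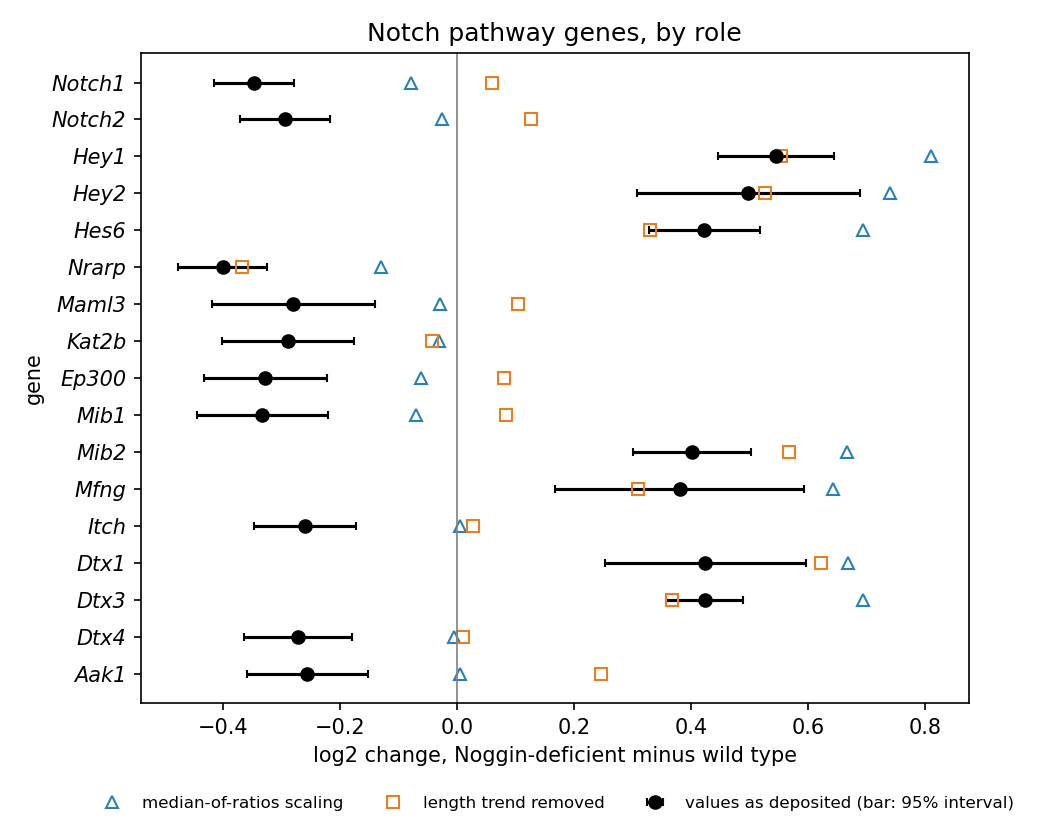
Log2 change, Noggin-deficient minus wild type (horizontal axis), of the 17 Notch pathway genes with values, ordered by role; filled points are the values as deposited with 95% intervals, triangles the changes after median-of-ratios scaling and squares those with the length trend removed. Hey1, Hey2 and Hes6 stay above 0 and Nrarp below 0 in each, while Notch1 and Notch2 cross to the other side once the length trend is removed.

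The direction of a pathway gene went with the length of its longest annotated transcript. With tested genes in 4 equal bins of length, the shortest bin reached 2066 bases, where 3 of 3 pathway genes were higher in Noggin-deficient tissue, and 64.0% of all tested genes were. In the next bin, up to 3422 bases, 2 of 3 were higher, Hey1 at 2423 bases and Hey2 at 2550 bases, and 1, Nrarp at 2582 bases, was lower, where 48.5% of all tested genes were higher. In the bin up to 5432 bases, 2 of 5 were higher, against 28.2% of all tested genes, and among the longest genes 0 of 6 were, Notch1 at 9488 bases and Notch2 at 10500 bases included, against 8.73%. Nrarp and Hey1, whose transcripts differed little in length, thus had opposite changes.

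**Figure D4:**
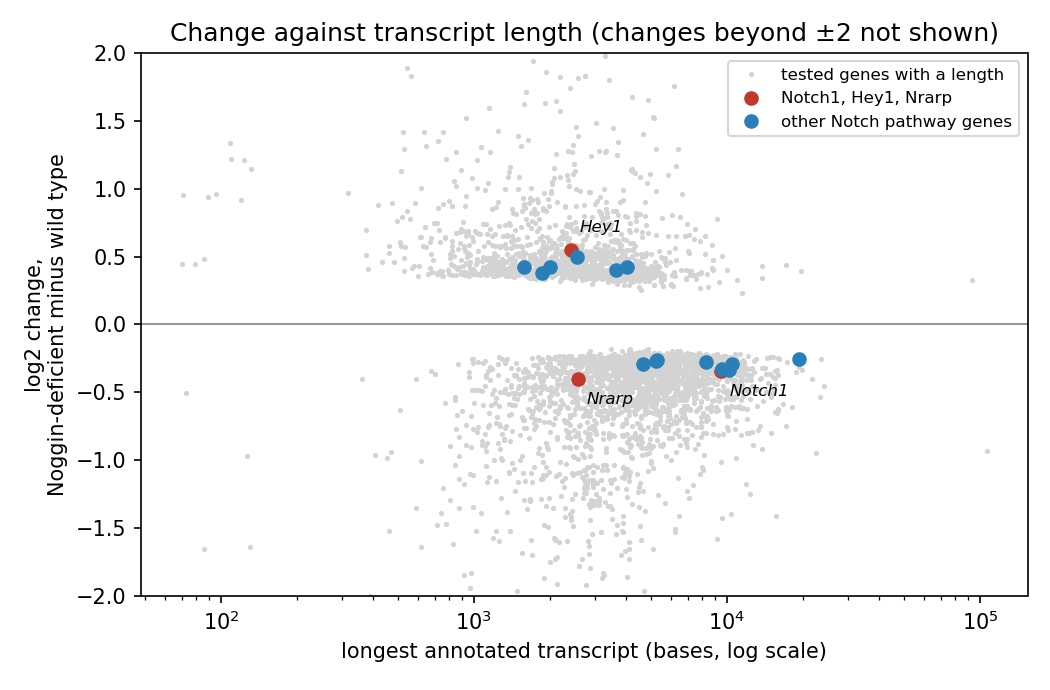
Log2 change, Noggin-deficient minus wild type (vertical axis), against the longest annotated transcript (bases, log scale) for tested genes with a length; red points are Notch1, Hey1 and Nrarp, blue points the other 14 Notch pathway genes. Hey1 and Nrarp lie at nearly the same length on opposite sides of 0, Notch1 lies among the long genes that are lower, and the empty band around 0 is the selection of the listed genes.

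Hey1 rose, as did most listed genes that respond to BMP. Of 17 BMP response genes listed, 12 had values, 10 rose and 2, Gata3 and Nog itself, fell, where 37.9% of all tested genes were called higher and 60.1% lower. Nog was listed at 0.49, 0.42 and 0.42 in Noggin-deficient libraries, against 2 and 1.99 in wild type libraries. The change of Hey1 (0.55) lay close to those of Id1 (0.49) and Id3 (0.47), inhibitors of basic helix-loop-helix factors, and of Smad6 (0.53) and Smad7 (0.41), inhibitory SMADs, with 95% intervals that overlapped its own. The homeobox genes Msx1 and Msx2 (1.86 and 1.27) and the basic helix-loop-helix genes Hand1 and Hand2 (1.63 and 1.06) rose by more, with intervals above that of Hey1. Hand1 was listed at 0.59, 0.58 and 0.54 in Noggin-deficient libraries, against 0.01 and 0.02 in wild type libraries. Hand1 and Msx1 (0.43 and 0.39 in wild type) reached the 0.5 needed for testing only in Noggin-deficient libraries. The change of Hand1 was 0.63 with 1 added before the log2 and 3.26 with 0.05, so its size depended on the added value. Over the 5 libraries 620 tested genes had log2 values within a root mean square difference of 0.1 of those of Hey1 once centred, so this likeness was not particular to BMP response genes. The summed level of the 12 genes, most of it Id1 and Id3, ranged from 197.0 to 202.4 in Noggin-deficient libraries and from 146.6 to 147.8 in wild type libraries.

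Notch1, Hey1 and Nrarp are all expressed in endothelium, and in bulk tissue fewer cells of a type and less RNA per cell cannot be told apart. Of 24 endothelial genes listed, 7 had values, none at 0. Of these 6 rose and 1 fell, against 37.9% higher and 60.1% lower among all tested genes. The rest of the list, Pecam1, Cdh5 and Kdr included, had no value. As the genes with values were chosen for a difference, the 7 do not stand for the whole list. The summed level of the 7 genes ranged from 222.4 to 229.3 in Noggin-deficient libraries and from 183.5 to 183.6 in wild type libraries. Cldn5, of endothelial tight junctions, rose by 0.65, Gja5 and Gja4, connexins of arteries, by 0.62 and 0.39, Egfl7, a secreted endothelial protein, by 0.56, Vwf, von Willebrand factor, by 0.47 and Eng, a co-receptor for BMP and TGF-beta ligands, by 0.46. Cd34, which fibroblasts and progenitors also carry, fell by 0.36. The log2 level of Hey1 relative to the mean of these 7 genes was -1.24, -1.18 and -1.12 in Noggin-deficient libraries, against -1.30 and -1.35 in wild type libraries, a difference of 0.15 with no overlap. Without Cd34, a choice made after seeing the data, this measure was -1.08, -1.02 and -0.98 in Noggin-deficient libraries, against -1.02 and -1.07 in wild type libraries, a difference of 0.02 with overlap. The same measure over all 7 genes for Notch1 was -0.87, -0.88 and -0.83 in Noggin-deficient libraries, against -0.11 and -0.12 in wild type libraries, and for Nrarp it was -0.28, -0.29 and -0.21 in Noggin-deficient libraries, against 0.58 and 0.50 in wild type libraries. Relative to the endothelial genes Notch1 and Nrarp were lower in every Noggin-deficient library. They were lower by 0.75 and 0.80 over all 7 genes, and by 0.87 and 0.93 without Cd34. The 6 genes left without Cd34 all rose, so lower values of Notch1 and Nrarp against them follow from the directions alone. The difference for Hey1 rested on Cd34, being 0.15 with it and 0.02 without it. The part of endothelial cell number in the rise of Hey1 was not tested.

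Muscle progenitors, where Notch acts, were represented by few genes. Of 16 progenitor genes listed 5 had values and 4 were tested. Of the tested genes Vcam1, an adhesion molecule that endothelial cells also carry, rose by 0.37. Itga7, a laminin receptor, Met, the receptor that guides migrating precursors, and Lbx1, a homeobox factor of migrating precursors, had changes of -0.31, -0.35 and -0.66. With the length trend removed Met was at -0.01 (limma adjusted p = 0.94). After median-of-ratios scaling Itga7 and Met were at -0.04 and -0.09 and not called (limma adjusted p = 0.25 and 0.2). Vcam1 and Lbx1 stayed called under both settings. Lbx1 was listed at 8.14 and 5.9 in the wild type libraries, and its change ranged from -0.88 to -0.43 with each library left out in turn. The summed level of the 5 genes ranged from 51.1 to 51.9 in Noggin-deficient libraries and from 51.5 to 53.5 in wild type libraries. Most of it was Vcam1, which rose, and Itga7, which fell, so the sum hides both changes. All 7 differentiation genes with values fell, where 60.1% of all tested genes did, among them Acta1, skeletal actin, and Myf6, a muscle regulatory factor (-0.55 and -0.92). After median-of-ratios scaling Mef2c, a muscle transcription factor, and Actc1, cardiac actin, were at -0.02 and -0.10 and no longer called (limma adjusted p = 0.59 and 0.051). Mef2c with the length trend removed was at 0.04 and Myh3, the embryonic myosin, at -0.05 (limma adjusted p = 0.25 and 0.17). The labelled tissue carried muscle genes in every library, Acta1 at 1580 to 1629 in Noggin-deficient and 2335 to 2357 in wild type libraries, together with genes of other tissues. Krt10, of the epidermis, was at 285 to 290 in Noggin-deficient and 858 in both wild type libraries. Hbb-y, an embryonic globin, was at 137 to 148 in Noggin-deficient and 50.7 to 55.7 in wild type libraries. Tubb3, a neuronal tubulin, was at 7.62 to 8.29 in Noggin-deficient and 1.10 to 1.24 in wild type libraries. All 11 epidermis genes were lower and all 4 erythroid genes with values were higher in Noggin-deficient tissue, against 60.1% lower and 37.9% higher among all tested genes. Of the pericyte and smooth muscle genes 1 of 5 was higher and 4 were lower, and of the Schwann cell and neuron genes 4 of 7 were higher and 3 lower. The part of these tissues in the changes of Notch1, Hey1 and Nrarp was not tested.

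**Figure D5:**
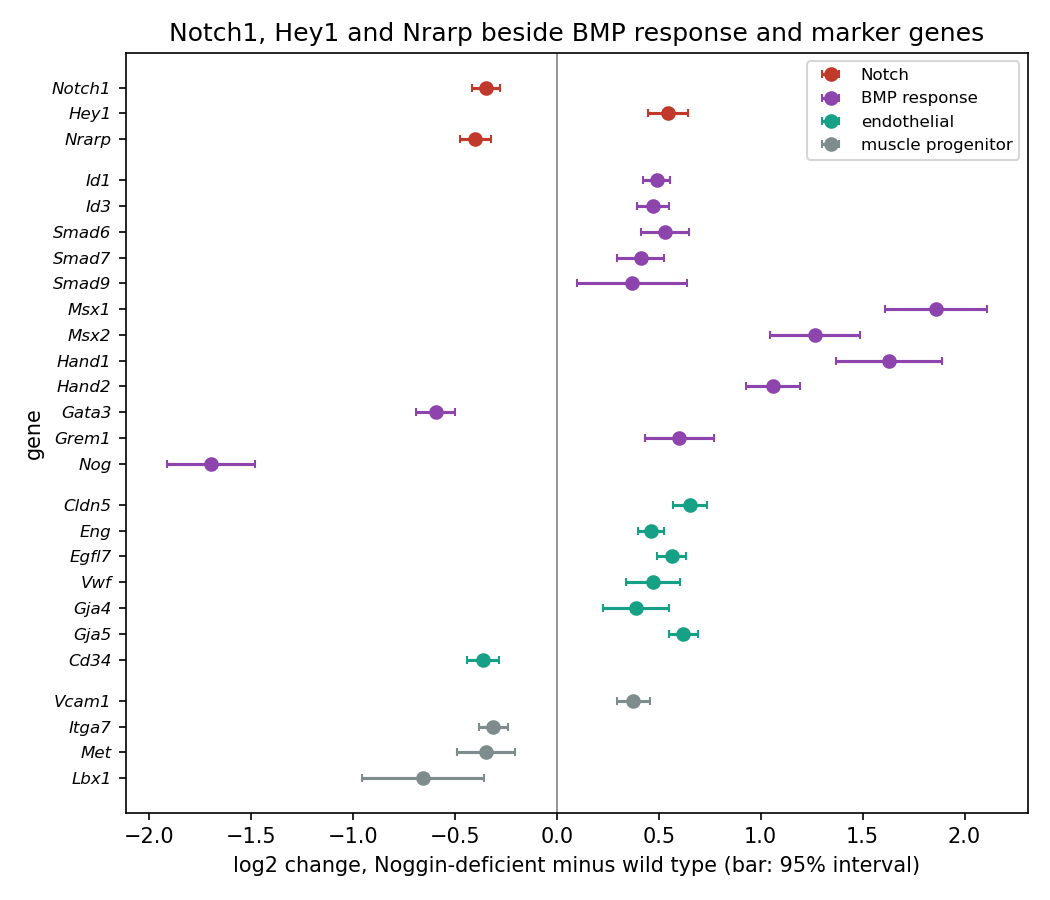
Log2 change, Noggin-deficient minus wild type (horizontal axis), with 95% intervals, of Notch1, Hey1 and Nrarp beside the tested BMP response, endothelial and muscle progenitor genes. Hey1 (0.55) lies among Id1, Id3, Smad6 and most endothelial genes and below Msx1, Msx2, Hand1 and Hand2, while Notch1 (-0.35) and Nrarp (-0.40) lie on the other side of 0.

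The genes whose values over the 5 libraries were most like each member were found by the root mean square difference of log2 values, each gene centred on the mean of its group means. For Hey1 these were Oas1a, an antiviral oligoadenylate synthetase (0.0071), Tbx5, the transcription factor of forelimb identity (0.019), and St8sia2, a polysialyltransferase (0.019). Oas1a had low values, 0.94, 1.02 and 1.02 in Noggin-deficient libraries, against 0.62 and 0.59 in wild type libraries. Its change was 0.31 with 1 added before the log2 and 0.67 with 0.05, against 0.50 and 0.56 for Hey1. The likeness of Oas1a to Hey1 thus depended on the added value. Tbx5 was listed at 8.36, 9.09 and 9.02 in Noggin-deficient libraries, against 6.19 and 6.02 in wild type libraries, with the first Noggin-deficient library lowest, as for Hey1. For Notch1 they were Lmna, of the nuclear lamina (0.0064), Sec23a, of secretory vesicle coats (0.0066), and Iqgap1, a cytoskeletal scaffold (0.0067), and for Nrarp Lpp, of focal adhesions (0.0047), Ly6a, the Sca-1 antigen (0.0080), and Stk24, a kinase (0.013). Such likeness was common, since 620 tested genes lay within 0.1 of Hey1, 1340 of Notch1 and 1328 of Nrarp.

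In the reference annotation Hey1 overlapped no other gene, whereas Nrarp overlapped 1 antisense gene and Notch1 2 opposite-strand processed transcripts, and Mib1 lay opposite a host transcript of muscle microRNAs. The library kit was stranded, but the labels do not state whether the counting used strand, so reads from such partners could be part of these values. How many reads stand behind a value is not known.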

How the data were processed

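RNA sequencing of forelimb muscle tissue gave 5 deposited tables, 1 per library, each with the same 4743 genes. Each deposited value is an expression signal, never negative, that the authors normalized. Its unit is named neither in the file headers nor in the labels. STAR 2.4.2a, DESeq2 and the build mm9 appear, with no role, in the submitters' processing notes, and the depth is unknown. The listed values summed to 92210 to 93695 in Noggin-deficient and 100792 to 102783 in wild type libraries.

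The 3913 genes that reached 0.5 in 2 or more libraries were fitted by limma 3.58.1 (R 4.3.3), with an intensity trend, on log2(value + 0.25), over all 5 libraries with no covariate. The count test planned for count files was not used because the files hold no counts. Pathway and marker lists describe counts and medians, without a set test. Only list genes among those chosen for a difference had values, so the counts do not stand for whole lists. Transcript length was the longest GENCODE M21 transcript, found for 3618 tested genes, and its trend was removed per library by lowess (span 0.5). The method was tested on simulated data in which most genes did not differ, unlike the listed genes. That test therefore does not give error rates for the listed genes. The text names the 3 genes, pathway and marker genes with values, and the 3 genes nearest each member; of the marker lists, the genes given with values were chosen after their values were seen. The members and lists were chosen with earlier results of these data known. Alternatives covered pseudocount, filter, scaling, length, trend, a 1.5-fold threshold, a replicate block and leaving out each library.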

Additional observations from a re-analysis of the deposited data

How the results depend on the processing

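Hey1 kept its direction and call under every setting run except the test against a 1.5-fold change, and so did Nrarp; Notch1 also lost its call and turned to 0.059 with the length trend removed. Leaving out each library in turn gave changes of 0.53 to 0.58 for Hey1, -0.43 to -0.37 for Nrarp and -0.35 to -0.34 for Notch1, with adjusted p from 5.2e-05 to 0.00037, where a lone wild type library was assumed to vary like the other group. It gave 3458 to 3767 called genes, a pathway median of -0.27 to -0.25 and ratio differences of 0.88 to 0.92 (Hey1 to Notch1), 0.93 to 0.97 (Hey1 to Nrarp) and -0.09 to -0.02 (Nrarp to Notch1), the last being -0.02 without wild type replicate 1 and -0.09 without wild type replicate 2.

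Against a 1.5-fold change 569 of 3913 tested genes passed, and Hey1, Nrarp and Notch1 kept their values of 0.55, -0.40 and -0.35 without a call. The pathway median of -0.26 was -0.23 with a pseudocount of 1, -0.062 after upper-quartile scaling, 0.0050 after median-of-ratios scaling and 0.13 with the length trend removed. Under median-of-ratios scaling Itch and Aak1 turned to 0.0050 and 0.0052. With the length trend removed Notch2, Maml3, Ep300, Mib1, Itch, Dtx4 and Aak1 turned to 0.13, 0.10, 0.080, 0.084, 0.026, 0.010 and 0.25, and Iqgap1, Lpp and Mef2c to 0.023, 0.076 and 0.035; the cause was not tested.

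With the replicate number as a block, the changes were 0.53 for Hey1, -0.41 for Nrarp and -0.35 for Notch1, all called, with 3772 genes called in all. The labels do not say that a number marks a shared litter or day, only 2 numbers are shared, and the differences between replicates 1 and 2 correlated at -0.11 over genes between the genotypes. The alternative with DESeq2 was not run, since the files hold no counts. With the number of reads unknown, no counting error could be given.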
